A study of Mus musculus with 6 samples.

Results

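The 10 genes described here encode lysosomal proteases and their main secreted inhibitor. They are the cathepsins Ctsa, Ctsb, Ctsc, Ctsd, Ctsk, Ctsl, Ctss and Ctsz, the asparaginyl endopeptidase legumain (Lgmn) and cystatin C (Cst3). They were taken by symbol from the 24062 genes of the deposited count table. All 10 were present and all 10 passed the filter on low counts, as did 15222 genes in all. RNA came from aortic arch plaque of Low-density lipoprotein receptor knockout mice of strain C57BL/6, which develop atherosclerosis on a fat-rich diet. The diet of all mice was high in fat (TD88137) during the first 12 weeks, and low in fat during the last 3 weeks of life. The 3 ABT263 samples came from mice injected into the peritoneum with ABT263 (navitoclax, an inhibitor of BCL-2, BCL-xL and BCL-w used to remove senescent cells) at 100 mg/kg once daily in week 1 of the low-fat diet. The other 3 samples came from vehicle-treated mice. The labels give no age or sex, and they do not say whether a sample was 1 mouse or a pool.

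Cathepsins are made as inactive precursors, are carried to lysosomes by mannose 6-phosphate receptors, and become active in the acid interior. Most are cysteine proteases of the papain family. Cathepsin D is an aspartic protease, and cathepsin A is a serine carboxypeptidase that also stabilises other lysosomal enzymes. In plaque they are made mainly by macrophages and also by smooth muscle cells, and several are secreted, where they can cut elastin and collagen. Cystatin C binds cysteine cathepsins tightly outside the cell. Many lysosomal genes carry the sequence CACGTG near their start sites, to which TFEB and its relatives bind.

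Promoter sequences are shown first. The hexamer CACGTG is a feature that the choice of genes did not use, and only Ctsa, Ctsd, Ctsl and Lgmn held it. RefSeq promoters (build GRCm38.p6, 250 bases before to 50 bases after a start site) were found for 9 of the 10 genes, 11 promoters in all. Ctsb was not among them. CACGTG, which reads the same on both strands, was searched for by exact match and is in capitals, 5′ to 3′ on the strand of the gene.
Ctsa, chr2:164833734-164833793 (+): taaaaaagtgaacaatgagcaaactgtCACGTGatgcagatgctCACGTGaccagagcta
Ctsd, chr7:142387893-142387952 (-): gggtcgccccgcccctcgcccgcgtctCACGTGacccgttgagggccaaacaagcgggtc
Ctsd, chr7:142388018-142388077 (-): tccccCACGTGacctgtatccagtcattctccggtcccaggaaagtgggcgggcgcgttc
Ctsl, chr13:64370711-64370770 (-): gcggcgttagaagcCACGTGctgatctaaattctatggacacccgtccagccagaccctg
Lgmn, chr12:102439109-102439168 (-): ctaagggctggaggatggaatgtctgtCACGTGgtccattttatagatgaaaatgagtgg

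Ctsa and Ctsd each held 2 matches in 1 promoter, and Ctsl and Lgmn held 1 each. In Ctsa and Lgmn the matches lay in 1 of their 2 promoters. The match began 98 and 245 bases before the start site in Ctsd, 236 before it in Ctsl, 49 before it in Lgmn, and 12 before and at base 6 after it in Ctsa. The promoters of Ctsc, Ctsk, Ctss, Ctsz and Cst3 held no match in this window. Over all 32851 RefSeq mouse promoters of this length, 7.15% held CACGTG. Counted by gene, 8.09% of 27025 genes held it. The longer TCACGTGA, which contains CACGTG, was present in 0.974% of promoters, and among the members in those of Ctsa (both matches) and Ctsd (the nearer match). GAGGAAGT, a form of the PU.1 site searched on both strands, occurred once each in the promoters of Ctsc and Ctss and in 3.20% of all promoters. These matches are letters only, since binding was not measured.

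Together the 10 genes took 5.65%, 2.80% and 3.80% of all counts in the vehicle libraries (here and below in the order of replicates 1 to 3) against 3.09%, 1.84% and 3.87% in those of ABT263. Ctsb, Ctsd and Ctsl alone made up 4.57% of counts in the highest library and 1.41% in the lowest. Member counts ran from 7807 to 1214512 reads per library, so counting error is small beside the spread between libraries. Ctsa, Ctsb, Ctsd, Ctsl and Ctsz have exons that overlap those of other annotated genes, among them Pltp for Ctsa, and their counts are uncertain to that extent.

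As a label check, markers of macrophages, smooth muscle and endothelium were read in all 6 libraries. Total counts per library were 62930547 to 110452098. Libraries differed beyond their groups: white adipocyte markers summed to 4950 CPM (read counts relative to the TMM-scaled library total) in ABT263 replicate 2 and to 141 to 347 CPM in the 5 other libraries. Vehicle replicate 2 had the highest class II antigen processing genes (summed level 31050 CPM against 1464 to 4374 in the 5 others). It also had the lowest endothelial markers, 455 CPM against 1715 to 4972. Skeletal muscle markers summed to 41.5 CPM in ABT263 replicate 3 and to 4.36 to 8.74 CPM in the 5 others. Macrophage markers summed to 28486, 25442 and 17970 CPM under vehicle against 18001, 8953 and 17504 CPM under ABT263. All 14 had a negative fold change, against 49.9% of all genes tested. Their median log2 fold change was -0.71, from -0.02 for Itgam to -1.78 for Fcgr1. None was at 0, and 7 had groups that did not overlap on the lower side, against 6.31% of all genes. Smooth muscle markers summed to 2607, 2976 and 3592 CPM against 2406, 15758 and 9740. In bulk tissue, fewer cells of a type and less RNA per cell cannot be told apart.

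No member passed the test for a difference between the groups. The edgeR quasi-likelihood test called 0 of the 10 members and 0 of all 15222 genes (0% called) at a Benjamini-Hochberg adjusted p of 0.05. Member adjusted p-values were 0.654 to 0.998. At an unadjusted p under 0.05 it listed 0 members, against 8.38% of all genes. DESeq2 called 0 members and 153 genes (1.01%), with a smallest member adjusted p of 0.496, and limma-voom called 0 members and 0 genes (0%), with 855 genes at an unadjusted p under 0.05. Of the members, 9 had a negative fold change, against 49.9% of all genes, with a median log2 fold change of -0.57 for the members and 0.001 for all genes. Groups did not overlap for 1 member, Ctss, on the lower side (6.31% of all genes) and for 0 members on the higher side (5.68%). In 9 of the 10 genes the lowest library was ABT263 replicate 2, the library with the adipocyte markers. Ctsl was the exception, being lowest in vehicle replicate 2. Without ABT263 replicate 2 the median log2 fold change of the members was -0.28, and 9 were still negative. It was also -0.28 without vehicle replicate 1, with 8 negative, and -0.29 without replicate 2 of both groups, with 8 negative. Rn45s, the ribosomal RNA precursor, moved with the groups too, at 5834, 17860 and 5509 CPM against 3143, 2838 and 3449, without overlap and highest in vehicle replicate 2. With Rn45s left out of the library sizes, the median log2 fold change of the members stayed at -0.57, with 9 negative and 0 genes called. Any other part of Rn45s in the levels of the members was not tested.

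**Figure D1:**
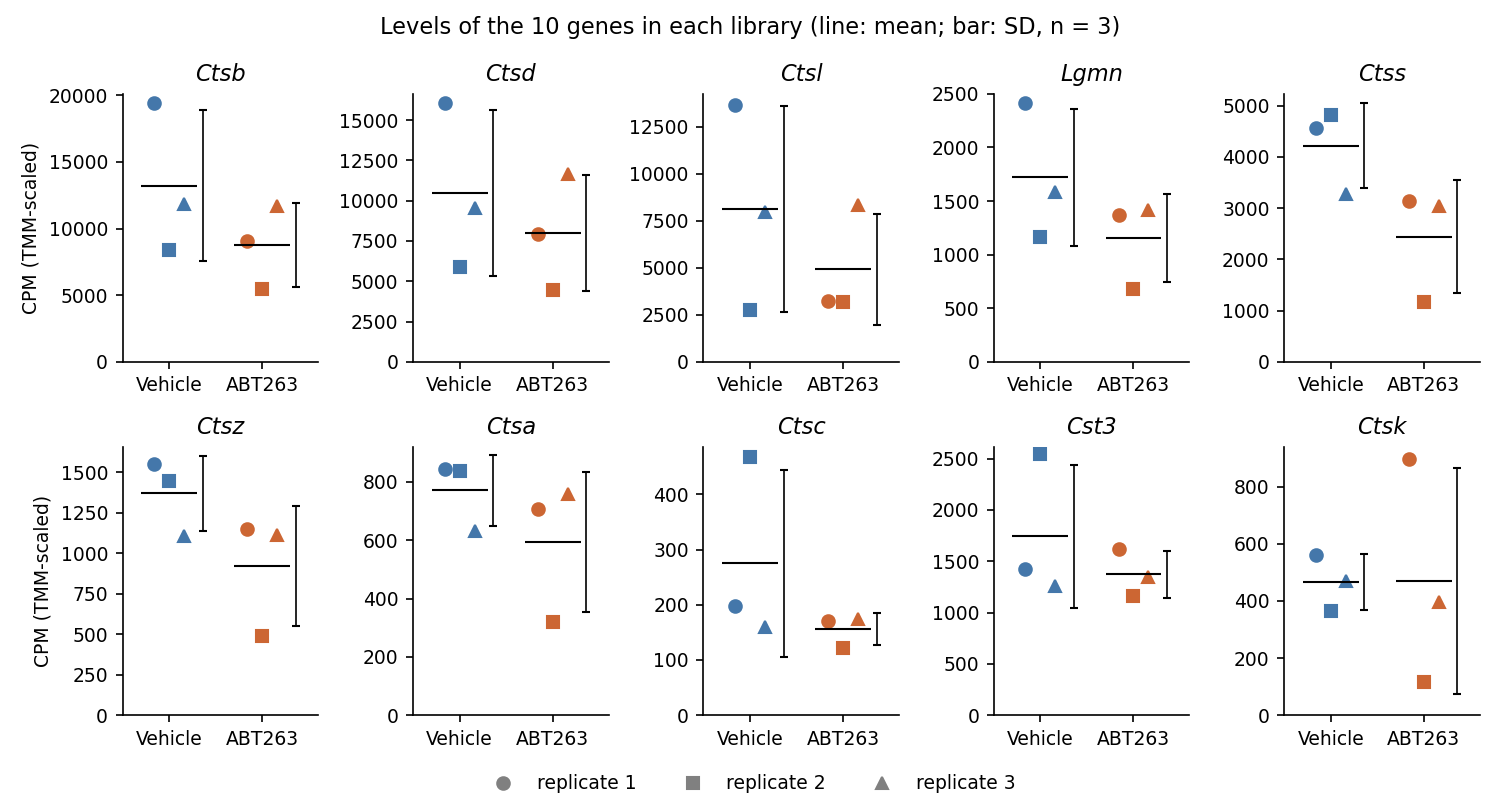
TMM-scaled CPM (linear axes from 0) of each gene in the 3 vehicle and 3 ABT263 libraries, with symbols for replicates, a line for the mean and a bar for the SD. Ctss is the gene whose groups do not overlap, and ABT263 replicate 2 is lowest for all genes but Ctsl.

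The macrophage cysteine protease Ctss encodes cathepsin S, which stays active at neutral pH and trims the invariant chain of MHC class II (chromosome 3, 95526786 to 95556403, mm10). It stood at 4560, 4818 and 3279 CPM in the vehicle libraries and 3133, 1165 and 3034 CPM in the ABT263 libraries. Every ABT263 library was below every vehicle library, though the nearest values, 3279 and 3133, were close. The means were 4219 ± 824 and 2444 ± 1109 CPM (SD, n = 3 each), and the log2 fold change was -0.79 (SE 0.48, edgeR adjusted p = 0.696). Without ABT263 replicate 2 it was -0.45. The macrophage markers given above moved with it, and their part in the difference was not tested.

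Ctsz encodes cathepsin Z, a carboxypeptidase of myeloid cells (chromosome 2, 174427493 to 174439039). Its levels were 1552, 1445 and 1106 CPM under vehicle against 1150, 491 and 1114 CPM under ABT263. The groups overlapped by a narrow margin, vehicle replicate 3 lying below ABT263 replicates 1 and 3. The log2 fold change was -0.57 (SE 0.40, adjusted p = 0.741), or -0.27 without ABT263 replicate 2. Ctsa, the protective protein of sialidase and beta-galactosidase (chromosome 2, 164832873 to 164841032), stood at 843, 839 and 631 CPM and at 707, 320 and 760 CPM. Outside ABT263 replicate 2 its libraries spanned a narrow range, and the log2 fold change of -0.37 (SE 0.38, adjusted p = 0.846) was -0.067 without that library. Ctss, Ctsz and Ctsa thus shared a profile: highest or near it in vehicle replicates 1 and 2, and far lowest in ABT263 replicate 2.

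A different profile was seen in the proteases that took the most reads, and in legumain. Ctsb, cathepsin B, an endopeptidase and peptidyl-dipeptidase (chromosome 14, 63122462 to 63145923), stood at 19427, 8384 and 11856 CPM under vehicle against 9066, 5500 and 11713 CPM under ABT263. Vehicle replicate 1 was high and vehicle replicate 2 was below 2 of the 3 ABT263 libraries, so the groups overlapped widely. The log2 fold change was -0.59 (SE 0.56, adjusted p = 0.828), and -0.21 without vehicle replicate 1. Ctsd, the aspartic protease cathepsin D (chromosome 7, 142375911 to 142388038), was at 16065, 5876 and 9540 CPM and at 7942, 4438 and 11658 CPM. ABT263 replicate 3 exceeded 2 vehicle libraries. The log2 fold change was -0.39 (SE 0.60, adjusted p = 0.913), with the sign turning to 0.055 without vehicle replicate 1.

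Ctsl and Lgmn followed the same libraries. Ctsl, cathepsin L, an endopeptidase that also processes cathepsin D and other precursors (chromosome 13, 64359337 to 64370890), stood at 13675, 2737 and 7966 CPM with vehicle. Its ABT263 levels were 3234, 3180 and 8320 CPM. The highest vehicle library was 5 times the lowest, the widest spread within the vehicle group among the 10 genes. The log2 fold change of -0.73 (SE 0.72, adjusted p = 0.842) ranged from -1.34 without ABT263 replicate 3 to -0.13 without vehicle replicate 1. Lgmn, which cuts after asparagine and matures several cathepsins (chromosome 12, 102394084 to 102439813), stood at 2416, 1166 and 1580 CPM and at 1372, 681 and 1414 CPM. Again vehicle replicate 1 was highest and ABT263 replicate 2 lowest, and the log2 fold change was -0.57 (SE 0.43, adjusted p = 0.765), or -0.25 without vehicle replicate 1.

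Ctsc and Cst3 were highest in vehicle replicate 2. Ctsc encodes cathepsin C, the dipeptidyl peptidase that activates the granule serine proteases of neutrophils, mast cells and cytotoxic lymphocytes (chromosome 7, 88278085 to 88310888). It stood at 197, 468 and 159 CPM under vehicle against 171, 122 and 174 CPM under ABT263. Apart from vehicle replicate 2 all libraries lay between 122 and 197 CPM. Its log2 fold change of -0.82 (SE 0.44, adjusted p = 0.654) was the largest in size among the 10 over all libraries, and it was -0.19 without vehicle replicate 2. The class II genes given above were also highest in that library, and their part in the difference was not tested.

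Cst3, the secreted inhibitor (chromosome 2, 148871722 to 148875692), stood at 1429, 2541 and 1259 CPM under vehicle against 1615, 1160 and 1345 CPM under ABT263. The ABT263 libraries spanned the range of vehicle replicates 1 and 3. The log2 fold change was -0.34 (SE 0.37, adjusted p = 0.858). Without vehicle replicate 2 it was 0.029, so its sign was set by that library.

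Ctsk differed from the rest in its most extreme libraries. It encodes cathepsin K, the collagen- and elastin-cutting protease best known from osteoclasts and also made by plaque macrophages and fibroblasts (chromosome 3, 95499256 to 95509362). Levels were 561, 365 and 470 CPM under vehicle against 899, 116 and 395 CPM under ABT263. ABT263 held both the highest and the lowest library, 7.77 times apart, and the group means were 465 ± 97.7 and 470 ± 397 CPM (SD, n = 3 each). The log2 fold change was 0.013 (SE 0.67, adjusted p = 0.998), -0.87 without ABT263 replicate 1 and 0.48 without ABT263 replicate 2, so no direction can be given.

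**Figure D2:**
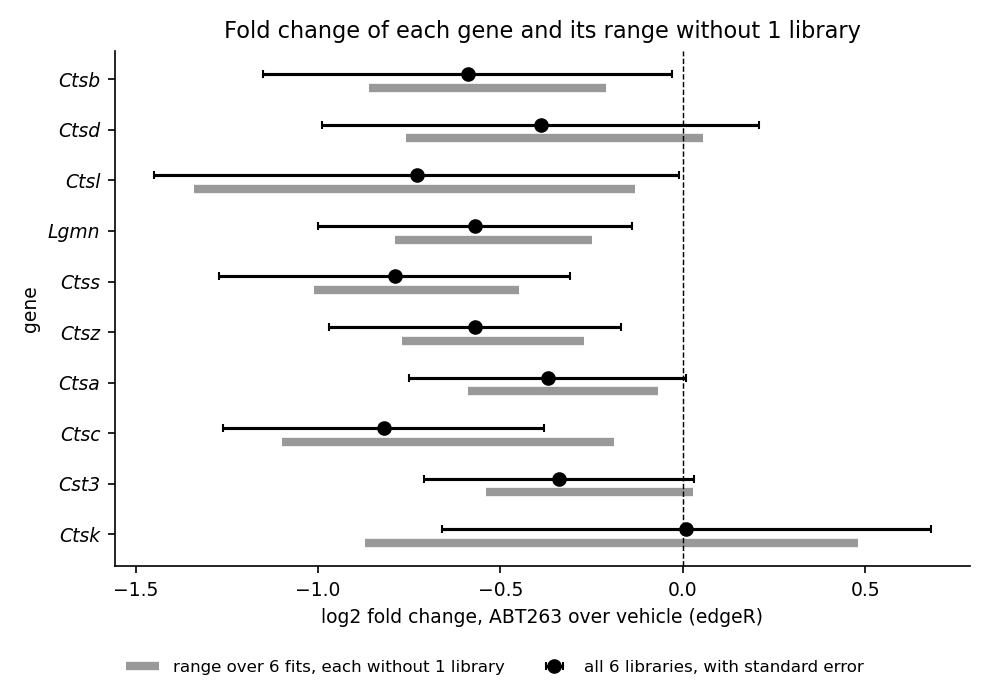
Log2 fold change (ABT263 over vehicle) of each gene from the edgeR fit, with its standard error (black), and the range over the 6 fits that each left out 1 library (grey). Ctss and 6 other genes stay negative over the grey range, while Ctsd, Cst3 and Ctsk cross 0.

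Set side by side, the 10 genes showed several profiles over the libraries. These profiles were named after the values were seen and carry no test. Correlations below are Pearson r of log2 CPM over the 6 libraries, which share library composition and depth, and are given as a description. Ctsb correlated with Ctsd at 0.97, with Lgmn at 0.98 and with Ctsl at 0.88, and without ABT263 replicate 2 at 0.95, 0.97 and 0.94. Ctss and Ctsz correlated at 0.99, or 0.95 without that library, and Ctsa and Ctsz at 0.98, or 0.84. Ctsc and Cst3 correlated at 0.96, or 0.95. Between the profiles the values varied. Lgmn correlated with Ctsz at 0.84 and Ctsb with Ctss at 0.72, but at 0.42 and 0.20 without ABT263 replicate 2, whereas Ctsc with Ctss had 0.71, or 0.77 without it. Ctsb with Cst3 had -0.04, or -0.59, and Ctsl with Ctsc -0.26, or -0.57. Ctsk correlated with Ctsz at 0.80, but at -0.15 without ABT263 replicate 2, so that value rested on 1 library. Of the genes with a promoter match to CACGTG, Ctsd, Ctsl and Lgmn were in the first profile and Ctsa in the second. Ctsb had no promoter to search, Ctss, Ctsz, Ctsc and Cst3 had no match, and a link of match and profile was not tested.

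**Figure D3:**
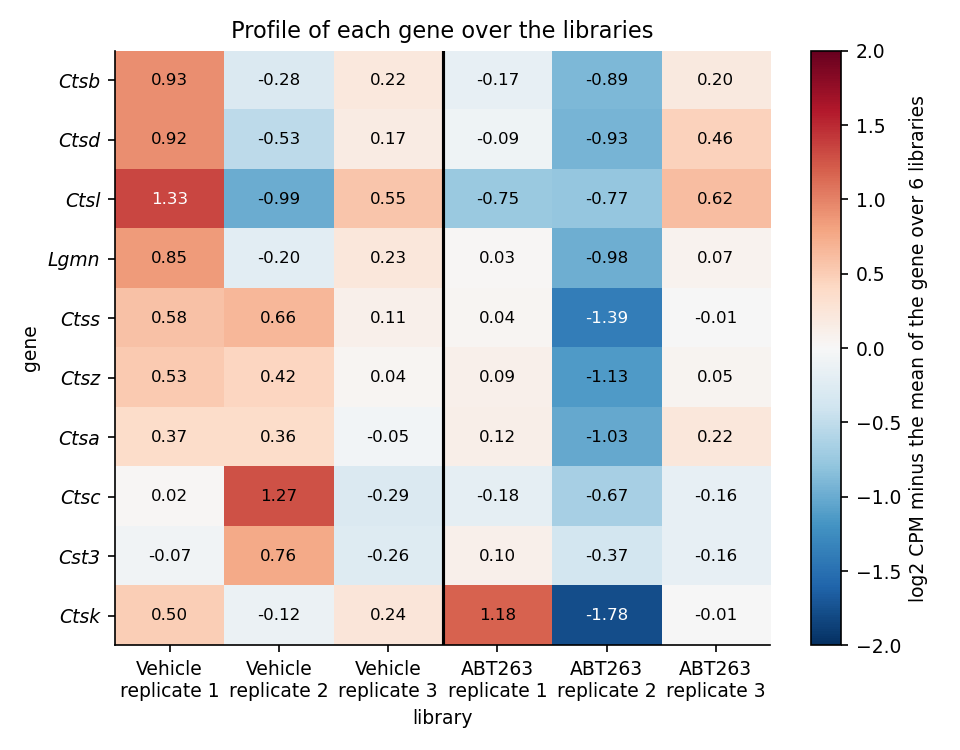
Log2 CPM of each gene minus its mean over the 6 libraries, in red where above and blue where below that mean, with vehicle left of the black line. Ctsb, Ctsd, Ctsl and Lgmn are highest in vehicle replicate 1, Ctsc and Cst3 in vehicle replicate 2, and Ctsk in ABT263 replicate 1.

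The gene most like each member was sought among 5721 other genes whose log2 CPM averaged 5 or more, by Pearson r over the 6 libraries. Each value is the highest of that many taken over few libraries, so it is a description and no p is given. Nearest were Plek to Ctsb (0.999), Zdhhc9 to Ctsd (0.994), Fnip1 to Ctsl (0.996) and Napg to Lgmn (0.999). Nearest were Fth1 to Ctss (0.997), Itm2c to Ctsz (0.997), Anxa4 to Ctsa (0.996), Inpp5b to Ctsc (0.997), Commd4 to Cst3 (0.999) and Rala to Ctsk (0.995). Second stood Myo1e for Ctsb (0.997), Glb1 for Ctsd (0.990), Sipa1l2 for Ctsl (0.994) and Vps18 for Lgmn (0.999). Tpd52 stood second for Ctss (0.996), and Dnmt1 for both Ctsa (0.992) and Ctsz (0.996). For Ctsc, Cst3 and Ctsk the second were Syngr2 (0.991), Srrt (0.995) and Tm9sf1 (0.985).

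Levels of different genes were compared per kilobase of exon, with exon lengths of the RefSeq-matched transcripts in the annotation. With vehicle the order of the mean CPM per kilobase was Ctsd (4934 ± 2426), Ctsl (4123 ± 2776), Ctss (3107 ± 607), Ctsb (2788 ± 1191), Cst3 (2027 ± 809), Ctsz (949 ± 162), Lgmn (865 ± 320), Ctsk (308 ± 64.6), Ctsa (210 ± 32.9) and Ctsc (51.6 ± 31.7). The first 5 overlapped from neighbour to neighbour, as did Ctsz and Lgmn, while Cst3 lay above Ctsz in every vehicle library. With ABT263 the order was the same except that Ctsb (1847 ± 657) and Ctss (1799 ± 817) changed places, at values that overlapped. Ctsc was lowest in both groups, without overlap with Ctsa. The composition of the set differed between libraries of the same group. Ctsl made up 26.1% of the summed length-scaled level in vehicle replicate 1 and 9.53% in vehicle replicate 2, and Ctss 12.7% and 24.4%.

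**Figure D4:**
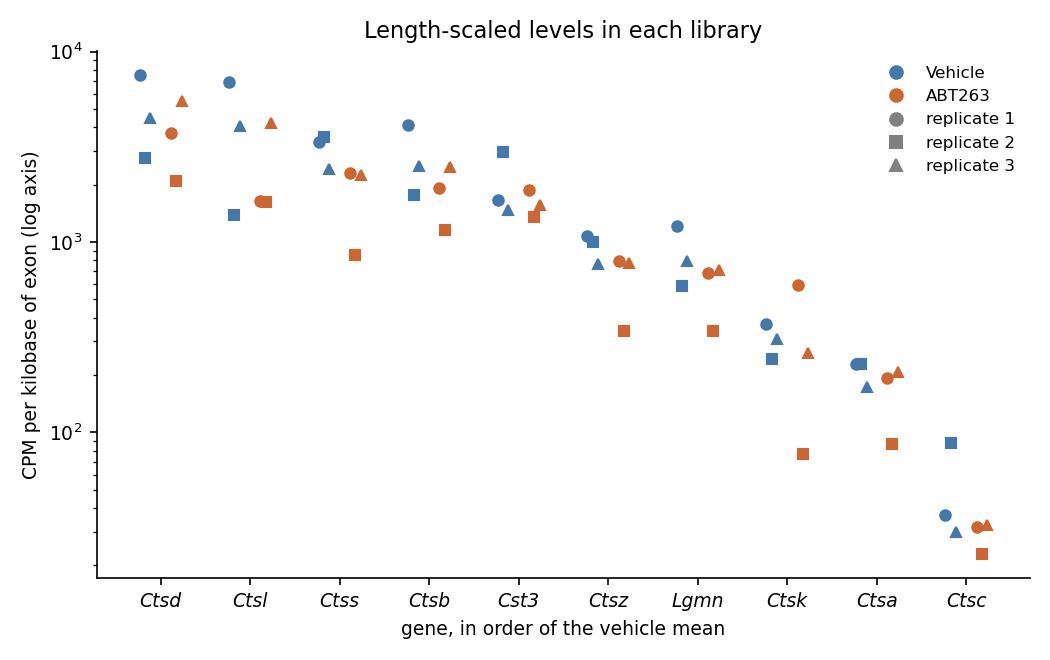
CPM per kilobase of exon (log axis) of each gene in each library, in the order of the vehicle mean. The genes span from 51.6 for Ctsc to 4934 for Ctsd in the vehicle mean, and the libraries of both groups overlap for every gene but Ctss.

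The balance between the 6 cysteine cathepsins (Ctsb, Ctsc, Ctsk, Ctsl, Ctss and Ctsz) and their inhibitor Cst3 was read as the ratio of their length-scaled levels. It was 9.55, 2.72 and 6.87 under vehicle against 3.88, 3.02 and 6.39 under ABT263. Vehicle replicate 2, with high Cst3 and low Ctsl, had the lowest ratio of all, and the groups overlapped. This ratio is of RNA and says nothing of active enzyme, and it was not tested since it is a score over the members.

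Because these genes are abundant in macrophages, each was also read relative to the mean log2 CPM of the 14 macrophage markers of the same library. The mean of the markers was itself lower with ABT263, at 9.29, 9.29 and 8.76 log2 CPM under vehicle against 8.61, 7.78 and 8.61. A gene that fell by less counts as higher on this scale, and the median log2 fold change of all genes was 0.001. On this scale 9 of the 10 members were higher with ABT263 and Ctss was lower. The share of all genes that were higher on it was not computed. No difference could be called, since 3 against 3 libraries cannot give an exact permutation p below 0.1. All 10 adjusted p-values over the members were 1 (exact two-sided permutation test). Ctss stood at 2.87, 2.95 and 2.92 log2 units with vehicle and 3.01, 2.41 and 2.96 with ABT263 (difference -0.12, exact permutation p = 1). ABT263 replicate 2 lay below the 5 other libraries, and without it the difference was 0.074. Ctsz lay between 1.16 and 1.56 in all 6 libraries (difference 0.12, exact permutation p = 0.4). Ctsa was at 0.43, 0.42 and 0.54 under vehicle against 0.86, 0.54 and 0.96 under ABT263 (difference 0.32, exact permutation p = 0.1). It was the 1 member whose groups did not overlap on this scale, with nearest values that both round to 0.54. The share of all genes without overlap on this scale was not computed, so this count has nothing to be set against. Cst3 was at 1.19, 2.02 and 1.53 against 2.05, 2.40 and 1.79 (difference 0.50, exact permutation p = 0.2). Ctsl ranged from 2.13 in vehicle replicate 2 to 4.45 in vehicle replicate 1 on this scale as well. Without vehicle replicate 2, 5 members rather than 9 were higher with ABT263.

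**Figure D5:**
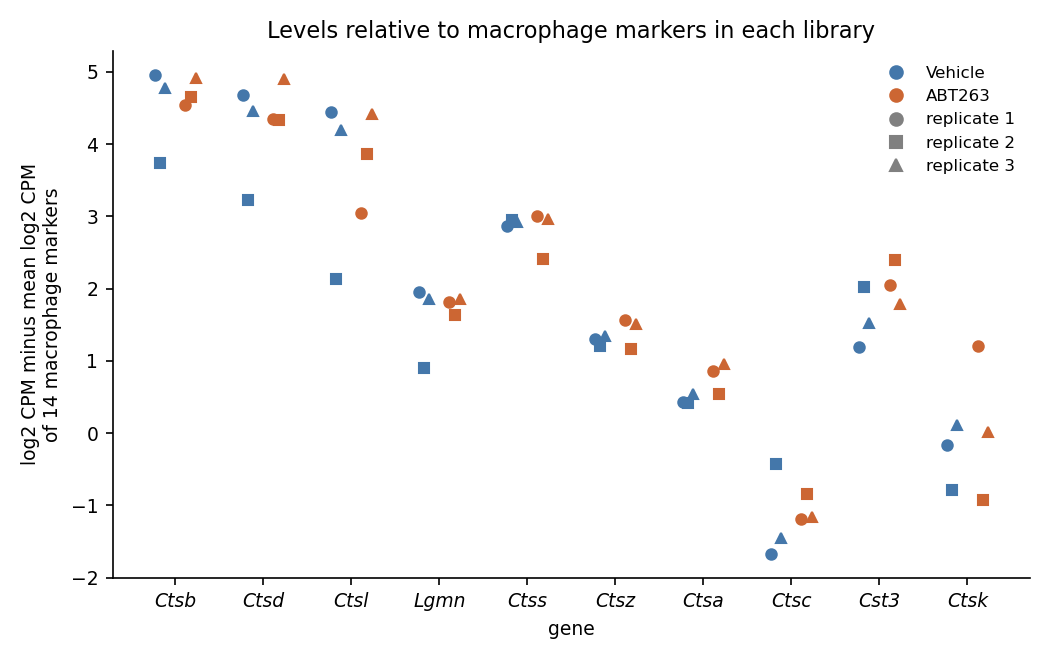
Log2 CPM of each gene minus the mean log2 CPM of 14 macrophage markers in the same library. Ctss lies at 2.87 to 3.01 in all libraries but ABT263 replicate 2 (2.41). Ctsb, Ctsd, Ctsl and Lgmn are lowest in vehicle replicate 2, and Ctsk spans from -0.93 to 1.21.

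Other genes of the pathway were read from lists chosen by function. No member of any of these lists passed the edgeR test after adjustment over all genes, and the values below are therefore descriptive. Of 10 other cathepsins, 5 passed the filter, 2 with a positive and 3 with a negative fold change. Ctsh, an aminopeptidase cathepsin, stood at 601 to 866 CPM under vehicle against 346 to 603 under ABT263 (log2 fold change -0.55). Ctsw, the cathepsin of cytotoxic lymphocytes, was at 3.68, 17.5 and 6.86 CPM against 0.362, 3.26 and 2.13 (log2 fold change -2.29, SE 0.90, adjusted p = 0.592), without overlap. All 8 T cell markers read beside it were negative too, with a median of -1.13, and their part was not tested. Ctsf (0.22) and Ctso (-0.08) were near 0.

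Among other inhibitors of cysteine proteases, 8 of 11 passed the filter and 6 of the 8 had a negative fold change. Ctla2b, related to the cathepsin propeptide, had a log2 fold change of -1.09 (SE 0.22) with groups that did not overlap, but its near-identical copy Ctla2a makes its counts uncertain. Cst7, an inhibitor that acts in immune cell lysosomes, was at 1.5, 15.6 and 1.65 CPM against 0.382, 1.51 and 0.757 (log2 fold change -2.83, SE 1.09), so its highest level was in vehicle replicate 2, as for Cst3 and Ctsc. Cstb, the intracellular stefin B, had a log2 fold change of -0.55 (SE 0.37), with its highest level (345 CPM) in the same library.

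Genes that deliver and switch on lysosomal enzymes mostly had negative fold changes. The 4 MiT/TFE factors, which bind CACGTG, all had negative fold changes (median -0.35), Tfeb having 47.9, 49.4 and 46.0 CPM under vehicle against 41.9, 35.4 and 37.7 under ABT263 (log2 fold change -0.32, SE 0.15, adjusted p = 0.603). The groups of Tfeb did not overlap, and those of Mitf (log2 fold change -0.39), Tfec (-0.59) and Tfe3 (-0.22) did. Of 9 sorting genes 8 were negative (median -0.16). M6pr, the cation-dependent mannose 6-phosphate receptor, was at 264 to 356 CPM against 180 to 260 (log2 fold change -0.47, SE 0.24). Igf2r, the larger receptor, was at 418, 102 and 313 CPM against 220, 157 and 355, lowest in vehicle replicate 2 as Ctsl was. The partners of cathepsin A, Neu1 (-0.34) and Glb1 (-0.18), and the 4 other lysosomal peptidases (all negative, median -0.23) overlapped between the groups, apart from Prcp (log2 fold change -0.63, SE 0.25, no overlap).

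Genes on which these proteases act, or beside which they are known, were read last. All 8 class II processing genes were negative (median log2 fold change -2.59), Cd74, the invariant chain cut by cathepsin S, standing at 537, 13487 and 1850 CPM against 757, 808 and 795. Vehicle replicate 2 held the high value, and Ctss was only slightly higher there than in vehicle replicate 1. The 4 endosomal Toll-like receptors, some of which are cut by cathepsins and legumain, and their chaperone Unc93b1 all had negative fold changes (median -0.95 over the 5 genes), Tlr3 being near 0 (-0.01). Tlr7 stood at 45.1, 29.5 and 47.3 CPM against 19.3, 19.3 and 24.5 (log2 fold change -0.95, SE 0.23, adjusted p = 0.592), and Unc93b1 at 349, 543 and 304 against 236, 158 and 204 (log2 fold change -1.0, SE 0.30). Both had groups that did not overlap. Of the osteoclast genes read beside Ctsk, 7 of 8 were negative (median -0.21). Acp5 was at 701, 334 and 420 CPM against 427, 240 and 341, and Atp6v0d2 at 1133, 339 and 701 against 570, 269 and 543. Neither was highest in ABT263 replicate 1, where Ctsk was. Of the 8 only Ocstamp was highest in that library, at 2.72 CPM. Dcstamp stood at 10.3 CPM in it and at 12.2 CPM in vehicle replicate 2.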

How the data were processed

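The authors deposited raw counts (unnormalized reads for each symbol) of 6 libraries in 1 table (RNeasy Micro extraction, TruSeq RNA Library Prep Kit v2, per the labels' protocols). Per the submitters' processing notes, the build was mm10 and the tools included featureCounts 1.4.6 (Subread), Bowtie2 2.2.6 and TopHat2 2.0.14. Annotation, strand setting and rule for shared reads: not given in the sources used here. The kit does not mark strand. Exons of Ctsa (Neurl2 and Pltp), Ctsb (Fdft1), Ctsd (Gm49369), Ctsl (Gm47123 and Gm49230) and Ctsz (Nelfcd) overlap those of other genes in GENCODE M21 (GRCm38, the assembly of mm10), so their counts are uncertain. Coordinates and exon lengths come from that annotation. Whether reads of the overlapping genes entered the member counts, and in some libraries more than in others, was not tested.

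Groups came from the sample titles. Replicates were numbered in accession order, which pairs nothing. The labels do not say that samples came from separate animals, so the spread that p-values rest on may be technical. The filter was filterByExpr (minimum count 10, minimum total 15). Scaling was TMM, and genes were tested by quasi-likelihood in edgeR 4.0.16 (R 4.3.3) on group alone, with Benjamini-Hochberg adjustment over all genes and a threshold of 0.05. SE was taken as the size of the log2 fold change over the root of the F statistic. DESeq2 1.42.0, limma-voom (limma 3.58.1), other scalings, no filter and leaving out libraries were alternatives. Log2 CPM used a prior count of 2. Both were tested on 3 simulations of 15222 genes of this comparison with 200 genes changed. EdgeR called 0.333% of 2-fold and 35.7% of 4-fold changes, with a mean of 3.33 false calls per simulation. DESeq2 called 21.3% and 81.7%, with 66.3 false calls. Counts were drawn for each gene separately, so libraries that stand apart over many genes, as seen here, were not simulated.

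Members and lists were chosen with earlier results of these data known. All 10 members are named. From each pathway list at most the 4 genes of smallest p are named, and others, as Igf2r, were named after their values were seen. Adgre1 is in the table under its older symbol Emr1. A count of 0 allows 3 counts, 0.0278 to 0.0480 CPM, which covers counting error only.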

Additional observations from a re-analysis of the deposited data

How the results depend on the processing

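No paired analysis was possible because the labels give the groups no shared replicate numbers. The count of genes called was 0 in all fits except DESeq2, which called 153, and 0 members were called in every fit. Of 130 alternative fold changes of members, 124 kept their direction and 6 turned. These were Ctsk with limma-voom (-0.49), without Vehicle replicate 2 (-0.13) and without ABT263 replicate 1 (-0.87), Ctsd without Vehicle replicate 1 (0.055), and Cst3 without Vehicle replicate 2 (0.029) and without replicates 2 of both groups (0.14). The cause was not tested. Leaving out 1 library at a time, fold changes ran from -0.59 to -0.067 for Ctsa, -0.86 to -0.21 for Ctsb, -1.10 to -0.19 for Ctsc, -0.76 to 0.055 for Ctsd, -0.87 to 0.48 for Ctsk, -1.34 to -0.13 for Ctsl, -1.01 to -0.45 for Ctss, -0.77 to -0.27 for Ctsz, -0.79 to -0.25 for Lgmn and -0.54 to 0.029 for Cst3. Plain library totals moved the median of all genes from 0.001 to 0.091 and that of the members to -0.49.

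Relative to macrophage markers, the count of members higher with ABT263 was 9, and 5 to 10 when 1 library was left out. Of 80 alternatives 9 turned, all on leaving out 1 library: without Vehicle replicate 2, Ctsb (-0.17), Ctsd (-0.041), Ctsl (-0.55) and Lgmn (-0.14); Ctsc without Vehicle replicate 1 (-0.13) or 3 (-0.023); Ctsk without ABT263 replicate 1 (-0.18); Ctss without ABT263 replicate 2 (0.074); and Ctsl without ABT263 replicate 3 (-0.14). Leaving out 1 library at a time, these differences ran from 0.24 to 0.45 for Ctsa, -0.17 to 0.44 for Ctsb, -0.13 to 0.49 for Ctsc, -0.041 to 0.69 for Ctsd, -0.18 to 0.88 for Ctsk, -0.55 to 0.61 for Ctsl, -0.23 to 0.074 for Ctss, 0.049 to 0.25 for Ctsz, -0.14 to 0.39 for Lgmn and 0.30 to 0.72 for Cst3. The difference in mean ratio of cysteine cathepsins to Cst3 was -1.95, -3.78 to -0.37 leaving out 1 library, -5.47 without length scaling, and -1.84 with all annotated exons as length, a setting chosen after seeing the data. Depth limited none of the members, whose smallest count was 7807.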

Other observations

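Proteases that cathepsin C activates did not all have fold changes of 1 sign. The lymphocyte granzyme Gzma stood at 5.68, 4.17 and 5.28 CPM under vehicle against 0.599, 2.55 and 0.925 under ABT263. Gzmb stood at 3.98, 7.34 and 2.41 CPM against 0.248, 1.5 and 0.210. Both had groups that did not overlap on the lower side, as had 6.31% of all genes. So had the elastase gene Elane of neutrophils, which did not exceed 0.334 CPM. Its level in ABT263 replicate 1, 0.0207 CPM, lay below that of 3 counts (0.031 CPM). The groups of Prtn3 (log2 fold change -1.36) and Gzmk (-2.42) overlapped. The mast cell chymases Mcpt4 and Cma1 stood at 41.9 and 36.6 CPM in ABT263 replicate 2 and at no more than 0.196 and 0.434 CPM in the 5 other libraries. That library also held the adipocyte markers and had the lowest Ctsc, 122 CPM. Gzma, Gzmb, Elane, Mcpt4 and Cma1 did not pass the edgeR test after adjustment (adjusted p = 0.592 for each). Nor did Prtn3 (edgeR adjusted p = 0.655) and Gzmk (0.688).

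The cathepsins Ctsj, Ctsm, Ctsq and Ctsr, known from placenta, had 0 counts in all 6 libraries, which allows at most 0.0480 CPM in the library of lowest scaled size. The stefin gene Stfa3 was detected in every library at 0.096 to 2.73 CPM, highest in vehicle replicate 2.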
